A study of Mus musculus with 176 samples.

Results

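Chemokine receptors decide where an antigen-experienced CD4 T cell goes after it leaves the lymph node or whether it stays there in the follicle. The 8 receptor genes described here, Cxcr3, Cxcr6, Ccr2, Ccr8, Ccr4, Ccr6, Cxcr4 and Cxcr5, were chosen by name as receptors of effector, regulatory and follicular T cells, and they are 8 of the 53546 gene names in the count table. They were followed in single CD4 T cells, 32 of them P6+ and all others P6-, from C57BL/6J mice (female, 7 weeks old at purchase, with no engineered allele named). The mice had been immunized intramuscularly with P6, a peptide of mouse apolipoprotein B, first in complete and 2 weeks later in incomplete Freund's adjuvant, and draining inguinal and para-aortic lymph nodes were taken 4 weeks after the first injection. P6+ cells bound the P6:I-Ab tetramer in both colours and P6- cells did not. Both groups were enriched for CD4 T cells, incubated with the kinase inhibitor dasatinib before the tetramer stain and gated as TCRβ+CD4+CD44hi CD62L-, so neither group represents naive cells or an unimmunized mouse.

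The P6+ cells came from 1 immunized mouse, and cells of one T cell clone can be among them. The cells are therefore not independent, no p-values are given, and intervals cover counting error only. The quality filters kept 161 cells, which were the 32 P6+ cells and all P6- cells but 15, and every P6- share below is a share of those kept. All P6+ cells carried the name prefix numbered 6, shared with 11 of the kept P6- cells. The other P6- cells carried 7 other prefixes, so beyond those 11 cells tetramer sign and prefix cannot be told apart. P6+ cells held 956280 to 3332191 reads (median 1731608) and the kept P6- cells 522188 to 3401373 (median 1500457). P6+ cells also held more genes (median 4396 against 3432), and medians of 2724 and 2224 remained when 500000 reads were drawn from each cell. The part of depth and gene number in the results below was not tested, and some shares are also given from equal draws of that size.

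Chemokine receptors are receptors with 7 membrane passes that couple to inhibitory G proteins and turn a ligand gradient into directed migration. CXCR3 binds the interferon-induced ligands CXCL9 and CXCL10 and marks type 1 effector cells. CXCR6 binds the membrane-bound ligand CXCL16, and CCR2 binds CCL2 and is used by effector T cells and monocytes to reach inflamed tissue. CCR8 (ligand CCL1) and CCR4 (ligands CCL17 and CCL22) are found on regulatory and type 2 cells, and CCR6 (ligand CCL20) on type 17 cells. CXCR5 (ligand CXCL13) takes follicular helper cells and B cells into the follicle, while CXCR4 (ligand CXCL12) acts in homing and retention in many leukocytes.

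On GRCm38, 5 of the 8 genes lie on chromosome 9. Cxcr6 (123806475 to 123811760) and Ccr2 (124101950 to 124113557), both on the + strand, lie 290189 bases apart. Ccr8 (120092114 to 120094906, + strand), Ccr4 (114490316 to 114504916, - strand) and Cxcr5 (44511787 to 44561877, - strand) are farther away on the same chromosome. Cxcr3 lies on chromosome X (101731535 to 101734269, - strand), Cxcr4 on chromosome 1 (128588199 to 128592293, - strand) and Ccr6 on chromosome 17 (8236043 to 8257141, + strand). The exons of 7 of the genes shared no base with another gene. In Cxcr5, 3.30% of exon bases overlapped Bcl9l on the opposite strand, and since the libraries do not mark strand, reads there cannot be assigned to one of the genes.

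The 250 bases before the RefSeq start site (GRCm38.p6), read 5′ to 3′ on the strand of the gene, are printed for the tissue-homing receptors on which the results turn. Such a sequence was at hand for 7 of the 8 genes, all but Cxcr5. Capitals mark matches, on either strand, to short motifs of transcription factor families with roles in T cells, each spelled out after the sequences.
Cxcr3 (chrX:101734148-101734397, - strand): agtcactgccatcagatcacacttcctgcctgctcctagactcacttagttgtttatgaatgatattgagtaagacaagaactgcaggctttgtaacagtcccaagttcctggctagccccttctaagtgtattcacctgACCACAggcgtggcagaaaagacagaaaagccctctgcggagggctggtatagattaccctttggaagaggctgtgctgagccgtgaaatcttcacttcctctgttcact
Cxcr6 (chr9:123806227-123806476, + strand): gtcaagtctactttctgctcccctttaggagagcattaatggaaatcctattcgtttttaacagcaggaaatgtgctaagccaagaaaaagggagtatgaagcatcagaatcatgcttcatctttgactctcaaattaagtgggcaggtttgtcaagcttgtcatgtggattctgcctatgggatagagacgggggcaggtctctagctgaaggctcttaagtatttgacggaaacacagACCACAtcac
Ccr2 (chr9:124101933-124102182, + strand): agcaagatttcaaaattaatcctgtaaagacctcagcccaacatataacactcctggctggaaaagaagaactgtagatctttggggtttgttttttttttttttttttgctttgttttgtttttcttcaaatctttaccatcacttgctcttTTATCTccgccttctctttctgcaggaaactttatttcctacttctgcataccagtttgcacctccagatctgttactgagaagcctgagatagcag
Ccr8 (chr9:120091883-120092132, + strand): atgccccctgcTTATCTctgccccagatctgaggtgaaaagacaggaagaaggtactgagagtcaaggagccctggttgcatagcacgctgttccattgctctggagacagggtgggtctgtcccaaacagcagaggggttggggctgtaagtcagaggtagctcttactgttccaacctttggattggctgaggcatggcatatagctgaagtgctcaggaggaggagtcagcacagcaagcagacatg
In these windows Cxcr3 and Cxcr6 each held 1 match of the Runx motif TGTGGT, 110 and 10 bases before the start. Ccr2 and Ccr8 each held 1 match of the GATA motif AGATAA, 97 and 239 bases before the start. Of all 32851 RefSeq windows of this length, 14.05% held the Runx and 9.99% the GATA motif, so such matches are common. The T-box motif GGTGTGA was in 3.33% of all windows. The forkhead motif TGTTTAC was in 3.17% of them. The AP-1 motif TGAGTCA was in 4.46%, and these last motifs were in no window of these 4 genes. A match only describes letters, and its absence says nothing about a factor.

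Most receptors were either on or nearly off in a single cell, with Cxcr4 as the exception. Among P6+ cells with 10 or more reads of Ccr2, the counts ran from 90 to 3697 with a median of 919.5, and the other 16 P6+ cells held at most 1 read. Of Cxcr6, the 9 P6+ cells at 10 or more held 229 to 19782 reads, and the remaining 23 held 1 to 8. Of Cxcr4, cells at 9, 13, 20, 40 and 80 reads were found among the P6+ cells. Cells are therefore counted as having a receptor at 10 or more reads, and the share of such cells is given first. Summed levels (cpm, the reads of a gene per 1000000 reads of the group) come second, since a few cells can carry most of them.

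**Figure D1:**
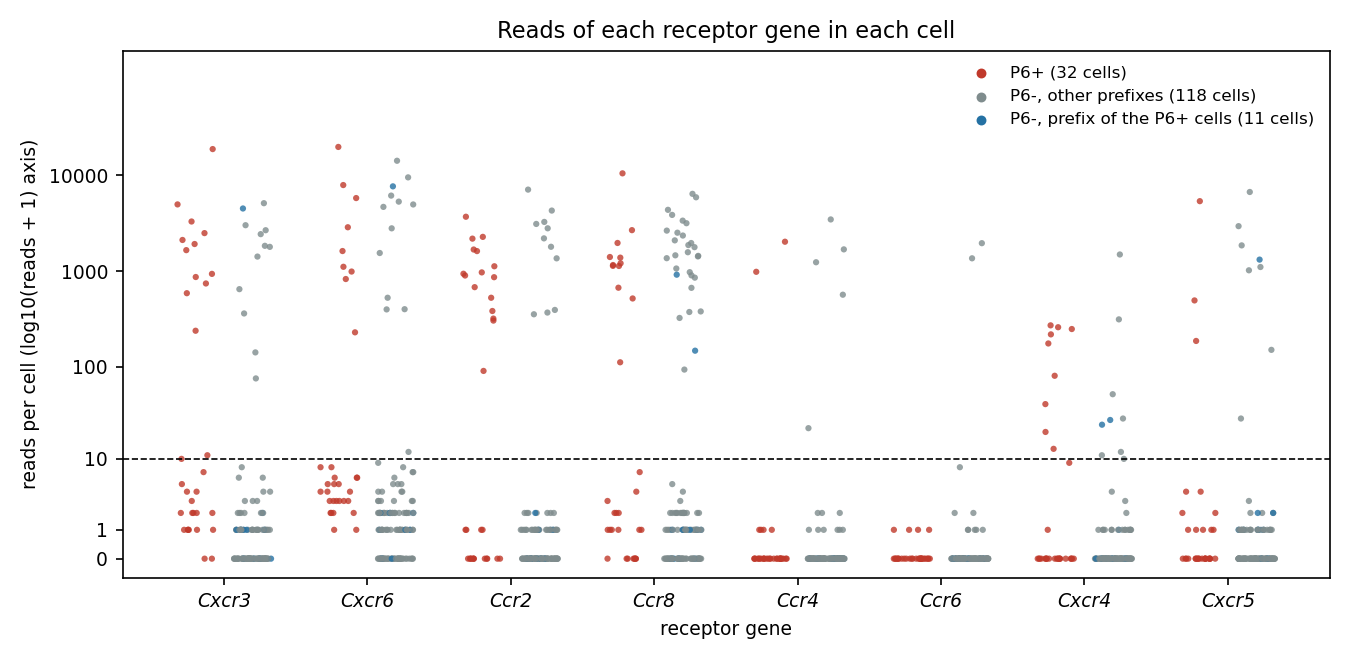
Reads of each receptor gene in every passing cell, on a log10(reads + 1) axis, with the limit of 10 reads as a dashed line. Cells above the line lie far from it for Ccr2 (90 to 3697 reads in P6+ cells) and near it for Cxcr4 (13 to 271).

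Ccr2 was the receptor found in most P6+ cells. It had 10 or more reads in 16 of 32 P6+ cells (50%, exact binomial 95% interval 31.9 to 68.1) and in 11 P6- cells (8.53%, 4.33 to 14.7). The P6+ cells held 0 reads at the lowest, 45.5 at the median and 3697 at the highest, against 0, 0 and 7095 in P6- cells, so the ranges overlapped and the groups differed in how many cells were on. The summed level was 313 cpm (exact Poisson interval 308 to 317) in P6+ and 132.8 cpm (131.2 to 134.3) in P6- cells, a log2 ratio of 1.23. Without the highest cell of each group the log2 ratio was 1.39. Without the highest P6+ cell alone it was 0.97, just under 2-fold. Among P6- cells that had Ccr2 the median level was 1399 cpm, against 570 cpm in such P6+ cells.

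Cxcr3, the receptor of type 1 effector cells, followed with 14 of 32 P6+ cells (43.8%, 26.4 to 62.3) against 12 P6- cells (9.30%, 4.90 to 15.7). P6+ cells ranged from 0 to 18790 reads (median 4.5) and P6- cells from 0 to 5119 (median 0). Both groups thus included cells without a read and cells with a high count. The summed levels were 652 cpm (645 to 658) and 118.2 cpm (116.7 to 119.7), a log2 ratio of 2.45. One P6+ cell held 48.6% of all Cxcr3 reads of its group, and without the highest cell of each group the ratio was 1.87. Of the 14 P6+ cells, 2 held only 10 and 11 reads, and 12 of 32 remained at 10 or more in equal draws of 500000 reads.

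Cxcr6 was on in 9 of 32 P6+ cells (28.1%, 13.7 to 46.7) and in 13 P6- cells (10.1%, 5.48 to 16.6), or 12 P6- cells in equal draws. P6+ cells ranged from 1 to 19782 reads (median 5) and P6- cells from 0 to 14195 (median 1). These intervals of the shares overlap. Each P6+ cell held at least 1 Cxcr6 read, as did 84 P6- cells, so at a limit of 1 read the receptor would be counted in 100% of P6+ cells. The summed levels were 695 cpm (688 to 701) and 286 cpm (284 to 288), a log2 ratio of 1.28 that fell under the 2-fold limit, to 0.81, without the highest cell of each group.

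Ccr8 was the receptor found in most P6- cells and the one with the smallest contrast among those found in over 10 cells of each group. It was on in 12 of 32 P6+ cells (37.5%, 21.1 to 56.3) and in 29 P6- cells (22.5%, 15.6 to 30.7). P6+ cells ranged from 0 to 10489 reads (median 2) and P6- cells from 0 to 6411 (median 1). The shares overlap in their intervals, and the summed levels of 402 cpm (397 to 408) and 276 cpm (274 to 279) gave a log2 ratio of 0.54, or -0.07 without the highest cell of each group. Ccr4, which often accompanies Ccr8 on regulatory cells, was rare in both sorts, with 2 of 32 P6+ cells (984 and 2028 reads) and 5 P6- cells (3.88%, 22 to 3464 reads; 4 cells in equal draws). Its log2 ratio was 0.55, and -0.02 without the highest cells.

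Ccr6, the receptor of type 17 cells, was not found at 10 reads in any of 32 P6+ cells, which allows a share of up to 10.9% (exact binomial). Its 4 reads lay in 4 different P6+ cells, and it was on in 2 P6- cells (1.55%) with 1361 and 1958 reads. With 0.067 cpm against 16.4 cpm Ccr6 stayed under the level floor of the comparison (a mean of 10 cpm over both groups and 10 reads in 3 cells), and the difference rests on those 2 cells.

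Cxcr4 was on in a larger share of P6+ than of P6- cells, and the follicular receptor gene Cxcr5 was found in few cells of either sort. Cxcr4 was on in 9 of 32 P6+ cells (28.1%, 13.7 to 46.7) and in 9 P6- cells (6.98%, 3.24 to 12.8). P6+ cells ranged from 0 to 271 reads (median 0) and P6- cells from 0 to 1492 (median 0), so its highest cell was a P6- cell. The summed levels were low, at 22.5 cpm (21.3 to 23.7) and 9.77 cpm (9.35 to 10.2), with a log2 ratio of 1.12. A single P6- cell with 1492 reads held 74.9% of the P6- reads, and without the highest cell of each group the ratio was 2.48. With the 15 P6- cells that failed the filters added, one of which held 3252 reads, it was -0.11. The direction of the summed level thus depends on single P6- cells, while the share of P6- cells with Cxcr4 was 6.94% with those cells added. Because most Cxcr4 counts are small they were sensitive to depth, and in equal draws of 500000 reads 7 P6+ (21.9%) and 4 P6- cells (3.10%) were at 10 or more.

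Cxcr5 was on in 3 of 32 P6+ cells (9.38%, 1.98 to 25.02) and in 8 P6- cells (6.202%, 2.72 to 11.9). The 3 P6+ cells held 5375, 494 and 186 reads, and the first of these held 88.5% of all P6+ reads. The P6- cells that had Cxcr5 ranged from 28 to 6702 reads, and 7 of the 8 remained in equal draws. Summed levels of 102.3 cpm and 74.4 cpm gave a log2 ratio of 0.45, which turned to -1.72 without the highest cell of each group. A direction for the summed Cxcr5 level can therefore not be given.

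**Figure D2:**
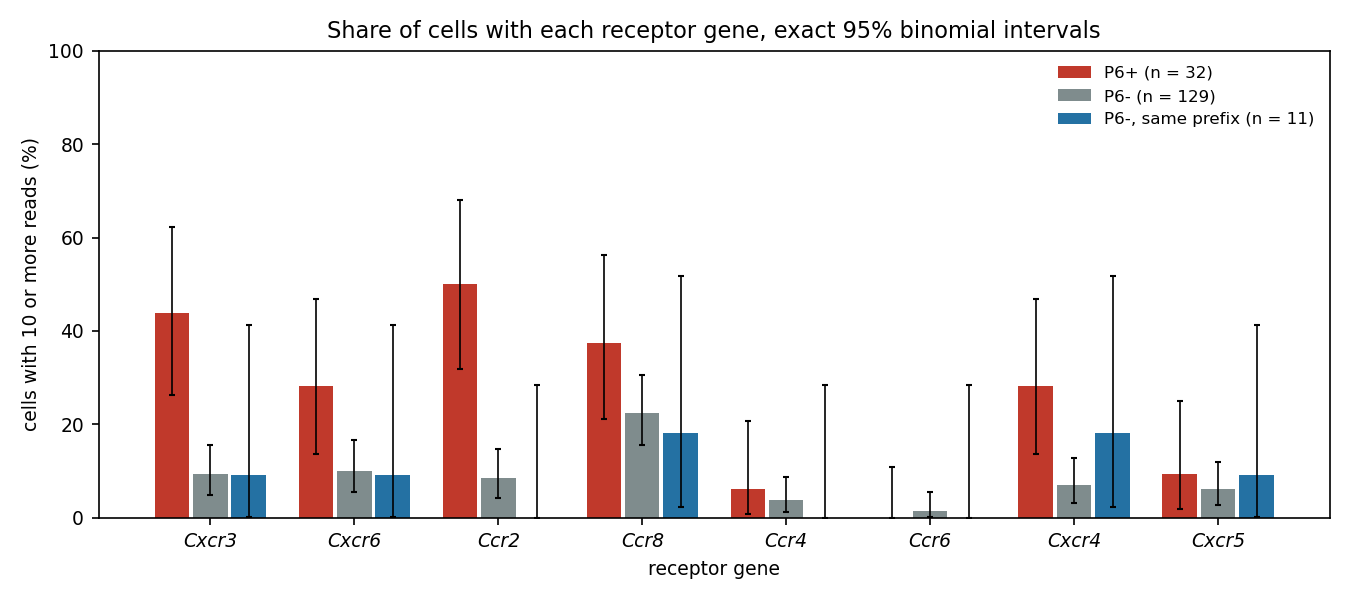
Share of cells with 10 or more reads of each receptor gene in P6+ cells, all kept P6- cells and the 11 P6- cells of the same name prefix, with exact 95% binomial intervals as error bars. For Ccr2, Cxcr3 and Cxcr4 the P6+ interval lies above that of all kept P6- cells. The intervals treat cells as independent, so this is no test.

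Over all genes the cells of the groups differed widely, and the counts of receptors have to be read against that. Of the 7 receptors above the level floor, 4 had a log2 ratio of at least 1 between P6+ and P6- cells (Cxcr3, Cxcr6, Ccr2 and Cxcr4, all higher), as had 47.8% of 7454 genes in either direction. A count near that share says nothing particular about the receptors. Shares of cells were compared by a limit that was chosen after the values were seen. Of these 7 receptors, 3 (Ccr2, Cxcr3 and Cxcr4) had a share of cells at least 20 percentage points higher in P6+ cells, against 9.14% of all genes. In equal draws of 500000 reads the difference of Cxcr4 was 18.8 points, which leaves 2 receptors at that limit. Differences as large as those of Ccr2 (41.5 points), Cxcr3 (34.4 points) and Cxcr4 (21.1 points) were seen in 0.483%, 1.42% and 8.36% of all genes, with a median over all genes of 4.72 points. Detection was higher in P6+ cells for general T cell genes too. All 8 T cell markers were on in a larger share of P6+ cells, by a median of 22.6 points, more than Cxcr4, while their median log2 ratio of summed levels was -0.09. The part of this gain in the receptor shares was not tested.

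Against the 11 P6- cells of the same prefix, Ccr2 again gave the largest difference in the share of cells. In these cells Ccr2 had 5 reads in all, at most 2 in a cell, and 0 of 11 were on, which allows a share of up to 28.5% (exact binomial). The log2 ratio was 7.89 (counting interval 7.46 to 8.17). Cxcr3 and Cxcr6 were each on in 1 of the 11 cells (9.09%, 0.230 to 41.3), with 4508 and 7673 reads. These single cells carried nearly all reads of their group, and the log2 ratios were 1.15 and 0.48 with them but 7.87 and 7.73 without the highest cell of each group. Ccr8 was on in 2 of 11 cells (18.2%, 2.28 to 51.8), with 918 and 147 reads and a log2 ratio of 2.52. The Ccr8 ratio was 4.31 without the highest cell of each group and 1.74 without the highest P6+ cell alone. Cxcr4 was on in 2 of 11 cells as well, with 27 and 24 reads and a log2 ratio of 2.43, but in 0 of 11 in equal draws of 500000 reads.

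In this comparison 4 of 6 receptors above the floor passed 2-fold, against 65.4% of 5506 genes, and 2 of 6 (Ccr2 and Cxcr3) had a share at least 20 points higher, against 15.6% of genes. All genes together were shifted by a median log2 ratio of 0.53 towards P6+ cells here, relative to which Cxcr6 and Cxcr5 (0.25) did not stand higher. For both genes this rests on single P6- cells. Without the highest cell of each group the ratios were 7.73 for Cxcr6 and 3.01 for Cxcr5. Ccr4 had no read in the 11 cells and was at least 262-fold higher in P6+ cells against a floor of 3 reads over the group, a value that rests on 2 P6+ cells. Across the 8 prefixes the share of P6- cells ranged from 0 to 16.7% for Ccr2 and from 0 to 20% for Cxcr3, in each case below the P6+ share, and from 0 to 18.2% for Cxcr4, 0 to 21.4% for Cxcr6 and 8.33 to 40% for Ccr8. The last range includes the P6+ share of 37.5%.

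Levels can be ordered between genes only per length, here as cpm per kilobase of exon (GENCODE annotation, all exons of the gene joined). In P6+ cells Cxcr3 (376), Cxcr6 (360) and Ccr8 (342 cpm per kilobase) were close to each other, and each rested on 1 cell for 43.9 to 48.6% of its reads, so their order is not fixed. Ccr2, with 6.76 kilobases of exon, followed at 46.3 although more cells had it, then Cxcr5 (30.7), Ccr4 (16.4) and Cxcr4 (12.4). The order of these last genes is not fixed either, since 1 cell held 88.5% of the Cxcr5 and 1 cell 67.2% of the Ccr4 reads. In P6- cells Ccr8 came first (235 cpm per kilobase), followed by Cxcr6 (148) and Cxcr3 (68.3).

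Most P6+ cells had at least 1 of the receptors and many had several. Of 32 P6+ cells, 30 (93.8%) had 1 or more and 17 (53.1%) had 2 or more, with a median of 2 and a highest number of 6. Of the P6- cells, 62 (48.1%) had 1 or more and 21 (16.3%) had 2 or more, with a median of 0 and a highest number of 3. In equal draws of 500000 reads the shares with 2 or more were 50% and 15.5%. Among the 11 P6- cells of the same prefix, 6 had 1 or more receptors and 1 had 2.

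Pairs of receptors in one cell can be set beside the number that the product of the 2 shares gives, as a description with no test. In P6+ cells Cxcr3 and Cxcr6 shared 8 cells (57.1% of Cxcr3 and 88.9% of Cxcr6 cells), where the product gives 3.94. Of these 8 cells, 2 held only 10 and 11 reads of Cxcr3. Cxcr6 and Ccr2 shared 7 cells (product 4.5), Cxcr6 and Ccr8 6 (3.38) and Ccr2 and Ccr8 9 (6). Cxcr3 and Ccr2, the most frequent receptors, shared 8 cells, close to the product of 7. In P6- cells fewer cells had each receptor and the counts were small, with 2 cells for Cxcr3 and Cxcr6 (1.21), 4 for Ccr2 and Ccr8 (2.47) and 3 for Ccr2 and Cxcr6 (1.11), while Cxcr6 and Ccr8 with 3 cells (2.92) and Cxcr3 and Ccr2 with 1 (1.02) were close to the product. There were 6 P6+ cells with 4 or more receptors. Each of these had Cxcr3 (one of them with 10 reads), Cxcr6 and Ccr8, and 5 had Ccr2.

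The 3 P6+ cells with Cxcr5 also had Cxcr4, where the product of the shares gives 0.844 cells. In P6- cells the 8 cells with Cxcr5 and the 9 with Cxcr4 did not overlap, and the product there gives 0.558 cells. The 3 P6+ cells were unlike each other. The first held 5375 reads of Cxcr5, 271 of Cxcr4 and 7074 of Ccr7 (the receptor for the T cell zone), and none of the other 6 receptors at 10 reads. The second held 494 reads of Cxcr5, 971 of Foxp3 and 588 of Cxcr3, and with 6 receptors it was the cell with the most. The third held 186 reads of Cxcr5 and 2009 of Pdcd1, which encodes PD-1, a protein abundant on follicular helper cells. Bcl6, the transcription factor of follicular helper cells, held 3 reads in the first of them and 0 in the others.

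**Figure D3:**
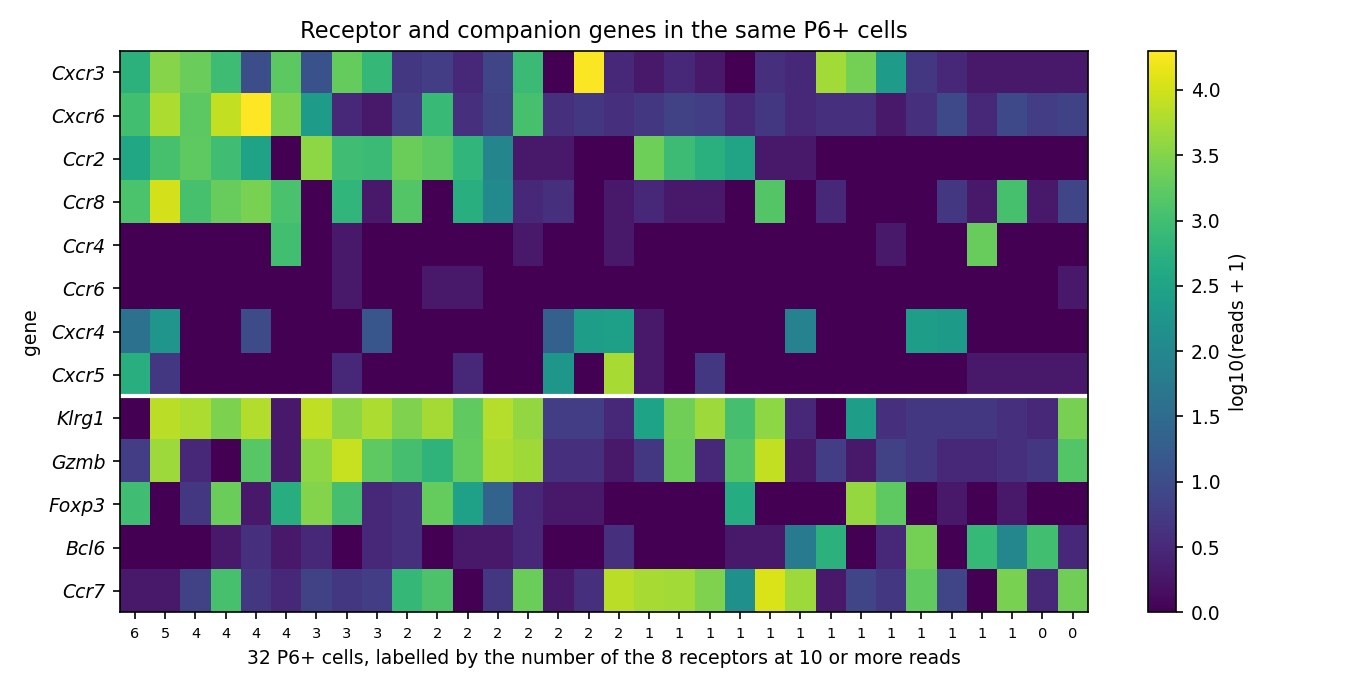
Reads (log10(reads + 1)) of the 8 receptor genes, above the white line, and of 5 companion genes, below it, in the 32 P6+ cells, ordered by the number of receptors at 10 or more reads. The 17 cells with 2 or more receptors hold no Bcl6 at 10 reads, and 15 of the 16 cells with Ccr2 hold Klrg1.

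Klrg1, an inhibitory receptor of terminally differentiated effector and regulatory T cells, was the companion that followed Ccr2 most closely among genes with a known role in T cells. Over the 32 P6+ cells and 4726 genes, Sdf4 (Spearman's rho 0.73), a calcium-binding protein of the secretory pathway, and Klrg1 (0.71) had the highest correlation of cpm with Ccr2, as a description over cells of 1 mouse and 1 prefix, and the next gene, Gm11605 (0.66), was on in 6 cells only. Klrg1 was on in 15 of 16 P6+ cells with Ccr2 and in 4 of 16 without it. In P6- cells, which that correlation did not use, Klrg1 was on in 6 of 11 cells with Ccr2 (54.5%) and in 4 without it (3.39%). Gzmb, the cytotoxic granule protease granzyme B, was on in 11 of 16 P6+ cells with Ccr2 and 3 of 16 without it, and in 4 of 11 P6- cells with Ccr2 (36.4%) and 4 without it (3.39%). Over the P6- cells the highest correlations were lower, with Cmtm7 (0.44) and the tumour necrosis factor receptor gene Tnfrsf1b (0.40) first for Ccr2. Tnfrsf1b was on in 10 of the 11 P6- cells with Ccr2, but it was a common gene that was on in 45 kept P6- cells in all. For Cxcr3 the first genes in P6+ cells were Gimap7 (0.65), Cap1 (0.57) and Spata13 (0.56), and for Ccr8 Ptbp3 (0.62), Ecm1 (0.58) and Psma1 (0.58). Ccr8 and Cxcr6 had a rho of 0.57 with each other there. In P6- cells the highest rho was 0.36 with Cxcr3 and Cxcr6 and 0.35 with Ccr8. Genes with a rho under 0.4 are not named, since weak correlations in sparse counts are no finding. The same limit was used for both sorts despite their different cell numbers. The genes named for Cxcr3 and Ccr8 in P6+ cells are the top 3 of 4726 over 32 cells. Whether picking alone gives such values was not tested.

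No P6+ cell had both Ccr2 and Bcl6. Bcl6 was on in 6 of 32 P6+ cells, of which 0 had Ccr2, 0 had Cxcr6, 1 had Cxcr3 and 1 had Ccr8. In P6- cells 0 of 11 Ccr2 cells and 12 other cells (10.2%) had Bcl6, counts too small to show a separation. Ccr7, which keeps cells in the lymph node, was on in 2 of 14 P6+ cells with Cxcr3 and 12 of 18 without it, but in 7 of 16 P6+ cells with Ccr2 and 7 of 16 without it. In P6- cells Ccr7 was on in 6 of 12 cells with Cxcr3, of which 2 held only 10 and 18 Ccr7 reads (58.97% of those without Cxcr3), and in 2 of 11 cells with Ccr2 (61.9% of those without). Of the lineage factors, Tbx21 (T-bet) was found in 1 of 14 P6+ cells with Cxcr3 and 2 of 18 without, and in 2 of 12 P6- cells with Cxcr3 and 1 without. Gata3, the type 2 factor, was common in P6+ cells and was on in 11 of 16 cells with Ccr2 and 8 of 16 without. Pdcd1 was on in 7 of 13 P6- cells with Cxcr6 and 9 without it (7.76%), but in 1 of 9 and 3 of 23 P6+ cells. In P6+ cells Klrg1 was on in 2 of 9 cells with Cxcr4 and 17 of 23 without it. Of the 9 cells with Cxcr4, 3 also had Ccr2, and the 2 with Klrg1 were among these 3. The contrast is therefore not separate from that of Ccr2 and Klrg1.

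Foxp3, the transcription factor of regulatory T cells, was itself on or off. By the limit of 10 reads, 11 of 32 P6+ cells (34.4%, 22 to 4166 reads) and 19 P6- cells (14.7%, 37 to 7737 reads) were Foxp3-high, and all others held at most 4 reads. Ccr2 was on more often in Foxp3-high cells of both sorts. In P6+ cells it was on in 8 of 11 Foxp3-high (72.7%, 39.03 to 93.98) and 8 of 21 Foxp3-low cells (38.1%, 18.1 to 61.6), and in P6- cells in 5 of 19 (26.3%, 9.15 to 51.2) and 6 of 110 (5.45%, 2.03 to 11.5). The summed levels gave log2 ratios of 0.99 in P6+ and 1.84 in P6- cells. The intervals of the shares overlap in both sorts. Share differences as large as that of Ccr2 were seen in 5.96% of all genes in P6+ and 4.77% in P6- cells.

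Cxcr3, Cxcr6 and Ccr8 were also on in a larger share of Foxp3-high than of Foxp3-low P6+ cells. Cxcr3 was on in 7 of 11 and 7 of 21, Cxcr6 in 5 of 11 and 4 of 21, and Ccr8 in 6 of 11 and 6 of 21, with overlapping intervals in each case. Differences as large as those of Cxcr3, Cxcr6 and Ccr8 were seen in 9.48%, 14.99% and 15.6% of all genes, whose median was 8.66 points higher in Foxp3-high P6+ cells. Their summed levels had log2 ratios of -0.79, 0.03 and -0.52, or 0.21, 0.35 and 0.11 without the highest cell of each group, all under 2-fold, and single Foxp3-low cells carried 60.97%, 69.7% and 57.5% of the Foxp3-low reads. In P6- cells Cxcr3 was on in 1 of 19 Foxp3-high (361 reads) and 11 of 110 Foxp3-low cells. Its log2 ratio was -3.34, or -6.33 without the highest cell of each group. The shares of Cxcr6 (15.8% and 9.09%) and Ccr8 (31.6% and 20.9%) were higher in Foxp3-high P6- cells. For Cxcr6 this rests on 1 of 3 Foxp3-high cells with only 12 reads, and at a limit of 100 reads the shares were 10.5% and 9.09%. Over all genes the median was 2.54 points higher in Foxp3-high P6- cells. Of Foxp3-high cells, 8 of 11 P6+ and 6 of 19 P6- cells had 2 or more receptors, against 9 of 21 and 15 of 110 Foxp3-low cells.

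Cxcr5 and Cxcr4 did not follow Foxp3 in one way. Cxcr5 was on in 1 of 11 Foxp3-high and 2 of 21 Foxp3-low P6+ cells, and in 0 of 19 and 8 of 110 P6- cells. Cxcr4 was on in 1 of 11 Foxp3-high (40 reads) and 8 of 21 Foxp3-low P6+ cells (13 to 271 reads), with summed levels of 2.20 and 31.4 cpm and a log2 ratio of -3.34. In P6- cells it was on in 2 of 19 and 7 of 110, and the log2 ratio of 3.79 came from the Foxp3-high cell with 1492 reads, without which and without the highest Foxp3-low cell it was -0.24. Ccr4 was on in 0 of 19 Foxp3-high and 5 of 110 Foxp3-low P6- cells.

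**Figure D4:**
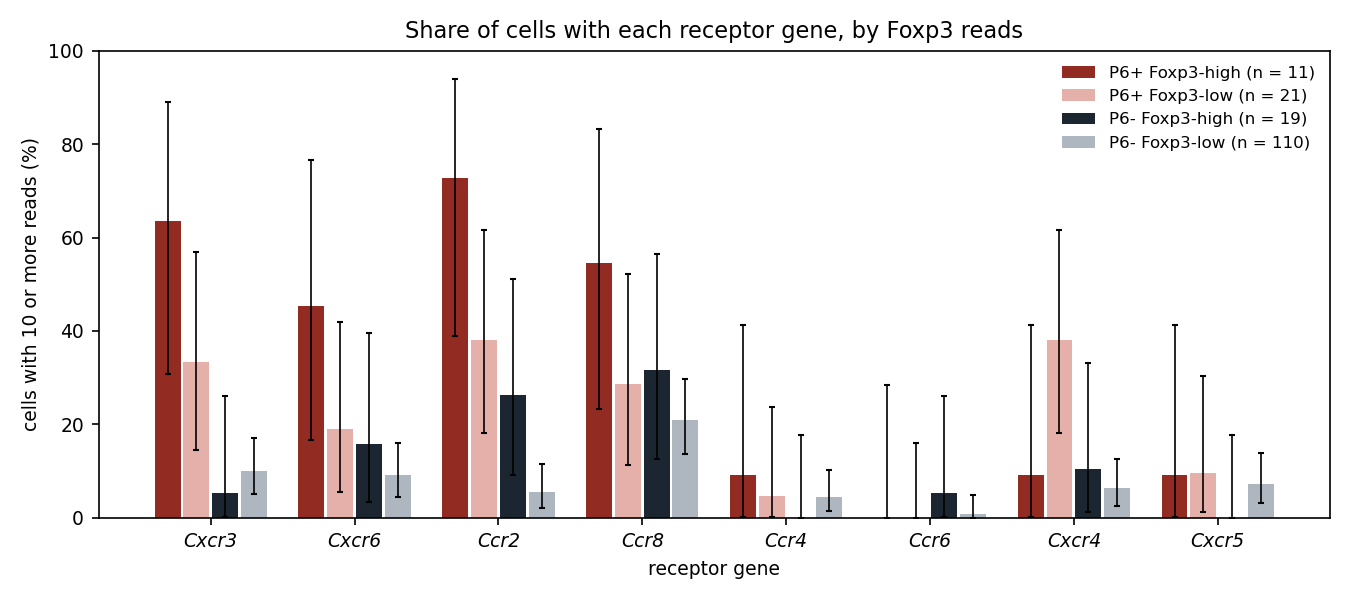
Share of cells with 10 or more reads of each receptor gene in Foxp3-high and Foxp3-low cells of each sort, with exact 95% binomial intervals. Ccr2 is highest in Foxp3-high P6+ cells (72.7%) and lowest in Foxp3-low P6- cells (5.45%), and Cxcr4 is highest in Foxp3-low P6+ cells (38.1%).

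In each Foxp3 class Cxcr3 and Ccr2 were on in a larger share of P6+ than of P6- cells, as were many other genes. The median over all genes was 11.5 points higher in P6+ cells among Foxp3-high and 3.12 points among Foxp3-low cells, and T cell markers were higher in 8 of 8 (median 31.3 points) and 7 of 8 (18.4 points). Among Foxp3-high cells Cxcr3 was on in 7 of 11 P6+ (63.6%, 30.8 to 89.1) and 1 of 19 P6- cells (5.26%, 0.133 to 26.03), with summed levels of 432 and 12.6 cpm and a log2 ratio of 4.996. That P6- cell held 97.3% of its group's Cxcr3 reads, and without the highest cell of each sort the ratio was 8.04. Among Foxp3-low cells Cxcr3 was on in 7 of 21 (33.3%, 14.6 to 56.97) and 11 of 110 (10%, 5.10 to 17.2), with a log2 ratio of 2.45. Ccr2 shares were 72.7% and 26.3% among Foxp3-high cells (log2 ratio 0.46) and 38.1% and 5.45% among Foxp3-low cells (1.31). The Ccr2 ratio among Foxp3-high cells was -0.15 without the highest P6+ cell and 0.33 without the highest cell of each sort. As a description only, the intervals of the shares did not overlap for Cxcr3 in Foxp3-high and for Ccr2 in Foxp3-low cells. They overlapped in the other pairs. The share of Cxcr4 was 38.1% in Foxp3-low P6+ and 6.36% in Foxp3-low P6- cells (log2 ratio 3.11), again with intervals apart (18.1 to 61.6 and 2.597 to 12.7).

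Counts past 2-fold in these splits have to be read against the share over all genes, which exceeded 50% in each. They were 2 of 6 receptors between Foxp3-high and Foxp3-low P6+ cells (Cxcr4 and Cxcr5, both lower) against 53.6% of genes, and 5 of 7 in P6- cells (Ccr2 and Cxcr4 higher, Cxcr3, Ccr4 and Cxcr5 lower) against 55.1%. Between the sorts they were 3 of 5 among Foxp3-high cells (Cxcr3 and Cxcr6 higher in P6+, Cxcr4 lower) against 56.9%, and 4 of 7 among Foxp3-low cells (Cxcr3, Cxcr6, Ccr2 and Cxcr4 higher) against 52.7%. Several of these ratios rest on 1 cell. Between Foxp3-high and Foxp3-low P6+ cells, Cxcr5 went from -2.27 to 2.24 without the highest Foxp3-low cell, which held 96.4% of its group's reads, and the shares were 9.09% and 9.52%. Without the highest cell of each group the Cxcr5 ratio was -2.29. Among Foxp3-high cells, Cxcr4 went from -4.03 to 0.93 without the P6- cell with 1492 reads, with shares of 9.09% and 10.5%. Without the highest cell of each sort the Cxcr4 ratio was -0.75. Cxcr6 went from 1.66 to 0.38 without the highest P6+ cell. It was 4.15 without the highest cell of each sort and 5.43 without the highest P6- cell. Among Foxp3-low cells, Cxcr6 went from 1.21 to -0.38 without the highest P6+ cell and to 0.06 without the highest cell of each sort. No direction of the summed level can be given for Cxcr5, Cxcr4 and Cxcr6 in the comparisons where the sign turned, nor for Ccr2 between Foxp3-high P6+ and P6- cells. These comparisons share cells with each other and with the comparison of all P6+ with all P6- cells.

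**Figure D5:**
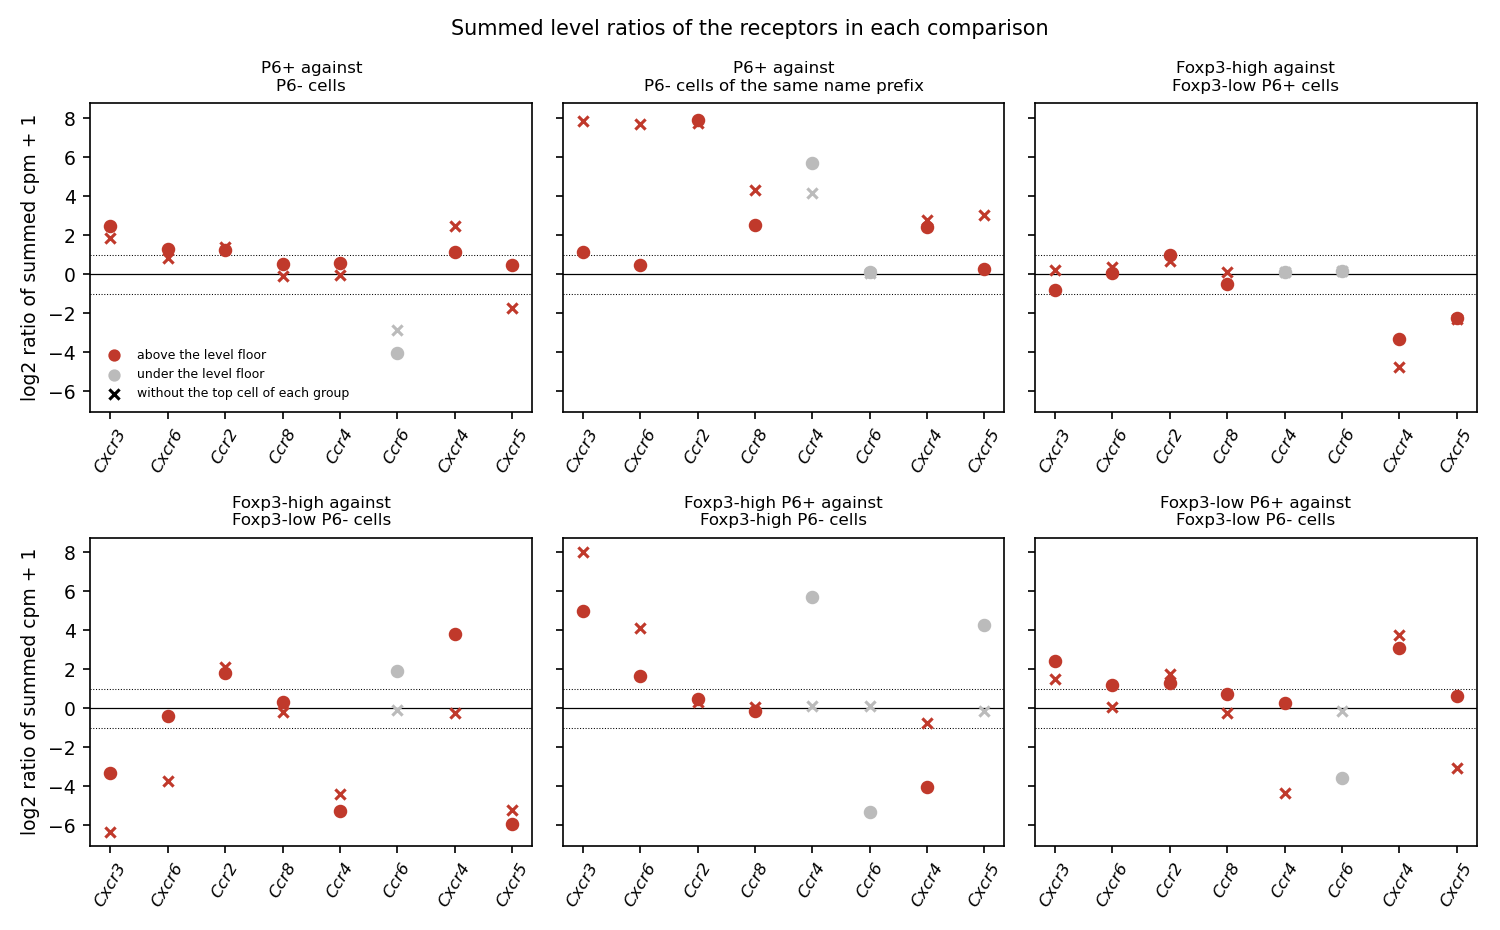
Log2 ratios of the summed level (cpm + 1) of each receptor in the 6 comparisons, as dots, and without the cell with the highest count in each group, as crosses; dotted lines mark 2-fold and grey symbols genes under the level floor. For P6+ against P6- cells, Ccr2 changes little without the highest cell of both groups (1.23 and 1.39), while Cxcr5 moves from 0.45 to -1.72. Without the highest P6+ cell alone, not shown, Ccr2 is at 0.97.

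Of 19 other chemoattractant and trafficking receptors, 8 were above the floor between P6+ and P6- cells, with 2 higher and 3 lower and a median log2 ratio of 0.48 (all genes -0.01). Ccr7 was lower in P6+ cells, at 823 against 2612 cpm (log2 ratio -1.66) and in 14 of 32 P6+ against 75 P6- cells (58.1%). S1pr1, the sphingosine 1-phosphate receptor that lets T cells leave the node, had 680 and 1607 cpm (-1.24), but 0.19 against P6- cells of the same prefix. Cx3cr1, the fractalkine receptor, gave -4.82 from 0 P6+ and 3 P6- cells. Of 14 ligand genes of the 8 receptors only Cxcl10 was above the floor, with 0 of 32 P6+ and 7 P6- cells (-5.27) and no cell of the same prefix. Of 4 other chemokines Ccl5 was above the floor. It was on in 10 of 32 P6+ and 6 P6- cells, with a log2 ratio of 0.72.

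By summed level, genes that act below the receptors did not move in one direction. Of 28 signalling and desensitization genes 24 were above the floor, with 3 higher, 5 lower and a median log2 ratio of -0.06. The largest were Pik3r5 (-2.82), a subunit of the phosphoinositide 3-kinase used by G proteins, the receptor kinase Grk6 (-2.27), the G protein regulator Rgs19 (1.77) and the Rap1 activator Rasgrp2 (-1.28). By share of cells, 18 of these 24 genes were higher in P6+ cells, by a median of 5.72 points (4.72 points over all genes).

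The cells were checked against markers of other cell types that use these receptors. Of 7 myeloid markers, none reached 10 reads in any P6+ or kept P6- cell, and their summed level per cell ran from 0 to 0.391 and from 0 to 1.92 cpm, so these markers were at or near 0 in the cells with Ccr2 as well. B cell markers (6 genes) reached 10 reads in 2 P6+ cells (Cd79b) and 2 P6- cells (Ebf1), with ranges of 0 to 580 and 0 to 40.2 cpm, and Cd79a, Ms4a1 and Pax5 were under 10 reads in every cell of both sorts. Both P6+ cells were Foxp3-high and had Cxcr3, neither had Cxcr5, and 0 of 8 P6- cells with Cxcr5 had a B cell marker. Markers of CD8 T and NK cells (5 genes) were on in 0 P6+ and 3 P6- cells, and 3 erythroid markers in none. At least 1 of 8 T cell markers was on in all 32 P6+ cells and in all P6- cells but 5. Cd3e was found in 87.5% of P6+ and 63.6% of P6- cells, Cd4 in 50% and 30.2% and Cd44 in 34.4% and 23.3%, each in a larger share of P6+ cells. CD4 and CD44 protein were both part of the gate, so a cell without 10 reads of a gene may still carry its protein.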

How the data were processed

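Single CD4 T cells were sorted into plates, and libraries were made by Smart-Seq2 with 23 preamplification cycles, without molecular identifiers or strand. The authors deposited raw read counts per gene, aligned with STAR 2.6.0a to GRCm38 with the Ensembl 92 annotation and not normalized, for 176 cells. Of 53647 entries in the table, 81 gene names were repeated and were averaged, which gave 53546 names. Exon lengths came from the GENCODE vM21 annotation.

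P6- cells were kept at 500000 or more reads, 2000 or more genes and under 10% mitochondrial reads, which removed 7 cells for reads and 8 for mitochondrial share. The filter of the study on mapping rate was not applied, because the counts do not hold that rate, so the P6- set here is not the one of the study. Doublets were not called. A gene was counted as on in a cell at 10 or more reads. For a group, reads were summed and given as cpm (counts per 1000000 reads) with exact Poisson intervals, shares of cells were given with exact binomial intervals, and log2 ratios used a pseudocount of 1 cpm. A ratio was compared for genes with a mean of 10 cpm over both groups and 10 reads in 3 cells, and 2-fold was the limit. A floor of 3 reads over the group stood in for a count of 0. With the P6+ cells of 1 mouse and P6- cells of which the labels name no mouse, each group is 1 sample. No test was made, and intervals cover counting error only.

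The receptors and the gene lists were chosen with earlier results of these data known. Companion genes were the 3 genes with the highest Spearman correlation over cells, for receptors on in 10 or more cells of a sort. They are named where the correlation was at least 0.4, a limit set after values were seen, and of each other list at most 4 genes with the largest ratios are named. Klrg1, Gzmb, Ccr7 and Pdcd1 as companions, and the limit of 20 points for shares, were chosen after values were seen. Scaling factors of edgeR 4.0.16 (TMM) and DESeq2 1.42.0 on the summed counts were used as alternatives. The scripts were tested on simulated data and ran on Python 3.11.15 (numpy 2.4.6, pandas 2.3.3, scipy 1.17.1, matplotlib 3.10.9) and R 4.3.3. A few genes of the lists are not reported here.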

Additional observations from a re-analysis of the deposited data

Results flagged for a closer look

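Cxcr4 moved in opposite directions with Foxp3 in the summed levels of the sorts. The log2 ratio of Foxp3-high over Foxp3-low cells was -3.34 in P6+ and 3.79 in P6- cells, a difference that was not tested, and the P6- value rests on 1 cell with 1492 reads.

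The 15 P6- cells that failed the quality filters, which are left out of every value but those said to add them or to use no quality filter, held more Ccr6 and Cxcr4 per read than the kept P6- cells. Ccr6 was at 85.6 cpm (16.4 cpm in kept P6- cells) from 1 cell with 933 reads, and Cxcr4 was at 298 cpm (9.77 cpm) from 1 cell with 3252 reads.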

How the results depend on the processing

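Of 74 alternative counts of receptors past 2-fold, 70 stayed within 1.5 times the reported count. Between Foxp3-high and Foxp3-low P6+ cells the count of 2 became 1 without the highest cells and 4 at a Foxp3 limit of 1 read, and in P6- cells the count of 5 became 3 at that limit. Between Foxp3-high P6+ and P6- cells the count of 3 became 6 without a level floor. Of the alternative shares of cells, 33 moved by less than their interval and 15 by more. The log2 ratios depended on the settings, with 292 alternatives within the counting interval, 293 outside it and 7 in which a ratio past 2-fold took the other sign (smaller ratios that changed sign are not counted there). These 7 were Cxcr4 between P6+ and all P6- cells with no quality filter (-0.11), between Foxp3-high and Foxp3-low P6- cells without the highest cells (-0.24) and between Foxp3-high P6+ and P6- cells of the same prefix (1.68). Cxcr5 between Foxp3-high and Foxp3-low P6- cells became 1.11 at a Foxp3 limit of 1 read. Cxcr6 between Foxp3-low P6+ and P6- cells became -0.27 at a Foxp3 limit of 1 read, -0.27 with cells of 1 to 9 Foxp3 reads left out and -0.23 with P6- cells of the same prefix. The cause was not tested. Size factors moved ratios by at most 0.11 (log2). Cells with 2 or more receptors made up 100% of P6+ and 82.9% of P6- cells at a limit of 1 read. In alternatives chosen after seeing the data, these shares were 43.8% and 15.5% without Cxcr4, and 53.3% of P6+ cells without the 2 cells with a B cell marker. The number of cells limits what can be said of Ccr4, Ccr6 and Cxcr5, which few cells of either sort held. No paired analysis was possible because the replicate numbers only name single cells, and no result comes from a test.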
